A study of Mus musculus with 6 samples.

Results

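The 39 genes described here encode the proteins that bring glucose into the cell, break it down to pyruvate, exchange lactate, control the fate of pyruvate and store or release glycogen. They were chosen by name for these roles, with earlier results of these data known. Each of the 39 had a row among the 24016 mouse genes measured. *Aldoa* had 2 rows with the same symbol. The row whose annotated gene overlaps the RefSeq gene most was taken as *Aldoa*, and the second row, which covers a neighbouring stretch upstream, held a normalized read count of 18.5 to 35.2 in the 6 libraries.

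RNA was sequenced from MC3T3-E1 subclone 4 cells, a wild-type preosteoblast line from mouse calvaria, that is, bone-forming cells in culture. For 6 days before treatment every culture received β-glycerophosphate at 10 mM together with 50 μg/ml of ascorbic acid to drive osteogenic differentiation. The labels place calcitriol (10 nM), the active form of vitamin D, in the medium during treatment. The 3 vehicle libraries were compared with 3 libraries from cells given corticosterone at 100 nM for 24 h, which is the principal natural glucocorticoid in rodents. The cells are 1 subclone of 1 line, so the replicates are repeat cultures and not animals, and the labels give their passage range as 4 to 10 in the growth protocol and 6 to 12 elsewhere.

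The values are normalized read counts, that is, whole reads divided by 1 size factor per library. Between 16020401 and 25638645 reads lay on genes per library, and the 3 corticosterone libraries were the shallowest. A count of 3 reads, taken as the floor, equals a normalized read count of 2.32 to 3.84, and it covers counting error only. Mitochondrial transcripts made up 4.52% to 5.18% of the reads with vehicle and 5.23% to 5.89% with corticosterone. The osteoblast genes *Col1a1* and *Sparc* stood at 624028 to 728294 and 101355 to 133177, while the summed level of the 3 skeletal muscle markers with a row was 11.6 to 32.1. The summed level of the 11 osteoblast markers was 1486080 to 1537210 with vehicle and 1287430 to 1346200 with corticosterone, with 8 called lower and 1 higher, and their part in the results below was not tested. Among 2 adipocyte markers with a row, *Fabp4* was higher after corticosterone at 108 to 130.5 against 7.72 to 21.1, whereas *Plin1* had reads in 1 library only. The summed level of the 4 chondrocyte markers with a row was 3543 to 3956 with vehicle and 2987 to 3017 with corticosterone, with *Col2a1* (-0.80) and *Sox9* (-0.16) called lower and *Col10a1* (0.73) higher. That of the 5 macrophage and osteoclast markers with a row was 1848 to 2013 with vehicle and 1456 to 1521 with corticosterone, nearly all of it *Ctsk*, which was called lower (-0.36). The part of these lists in the results was not tested either. The glucocorticoid-induced genes *Tsc22d3* and *Fkbp5* rose by 1.49 and 2.46 on the log2 scale, which checks the treatment labels.

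Glycolysis splits glucose into pyruvate in the cytosol and yields ATP without oxygen. Its committed step, the phosphorylation of fructose-6-phosphate by phosphofructokinase, is switched on by fructose-2,6-bisphosphate, which the PFKFB enzymes make and break down. Pyruvate is either reduced to lactate by lactate dehydrogenase and exported through monocarboxylate transporters, or carried into mitochondria and oxidised by the pyruvate dehydrogenase complex, which the PDK kinases turn off. Differentiating osteoblasts are known for a high glycolytic rate and lactate release, and many glycolytic genes are targets of the hypoxia-inducible factor HIF-1.

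Each gene was tested with limma on log2(normalized read count + 0.1), and p-values were adjusted by the Benjamini-Hochberg method across the 24016 genes. A gene was called at an adjusted p under 0.05, and fold changes below are log2 differences of corticosterone minus vehicle on that scale with their standard errors (SE). The labels call the libraries biological replicates without saying how the cultures were separated, so these p-values measure the spread between these libraries.

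After corticosterone, 7 of the 39 genes were called higher and 10 lower. Among all genes, 8.49% were called higher and 8.2% lower. Well-covered genes were called more frequently, and the members are mostly such genes: 32.6% of the 10558 genes with a mean of at least 100 were called in either direction, beside 17 of the 34 members with such a mean (50.0%). In either direction, 16.7% of all genes were called. The median log2 fold change of the members was -0.13, beside -0.01 for all genes. The 3 corticosterone libraries lay wholly above the vehicle libraries for 7 members and wholly below them for 7, where the shares over all genes were 14.7% and 14.9%. For these 14 members the two-sided exact permutation test gave p = 0.1, the smallest that 3 against 3 libraries allow. A single member, *Pfkfb3*, also passed an absolute log2 fold change of 1, as did 2.78% of all genes. Among genes with a mean of at least 10, limma called 7 members higher and 13 lower, beside 15.8% and 15.3% of all such genes. edgeR on the recovered reads called 7 and 13, beside 16.0% and 15.2%, and DESeq2 7 and 10, beside 12.6% and 11.4%. With the replicate number as a block, limma called 6 and 13, beside 8.38% and 7.88%, and DESeq2 called 3 and 10. For that DESeq2 fit no share over all genes was computed, so its counts stand without one. Under other scalings the split between higher and lower calls shifted from 7 against 10. It was 5 against 13 at equal library totals and 5 against 15 when the 10 most abundant genes were kept out of those totals. With upper-quartile scaling it was 3 against 15. In the same order, the median log2 fold change of all genes moved from -0.01 to -0.05, -0.07 and -0.08. Of all 24016 genes, 4224, 4398 and 3944 were then called in either direction, beside 4010 in the main fit. Shares by direction were not computed for these scalings.

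**Figure D1:**
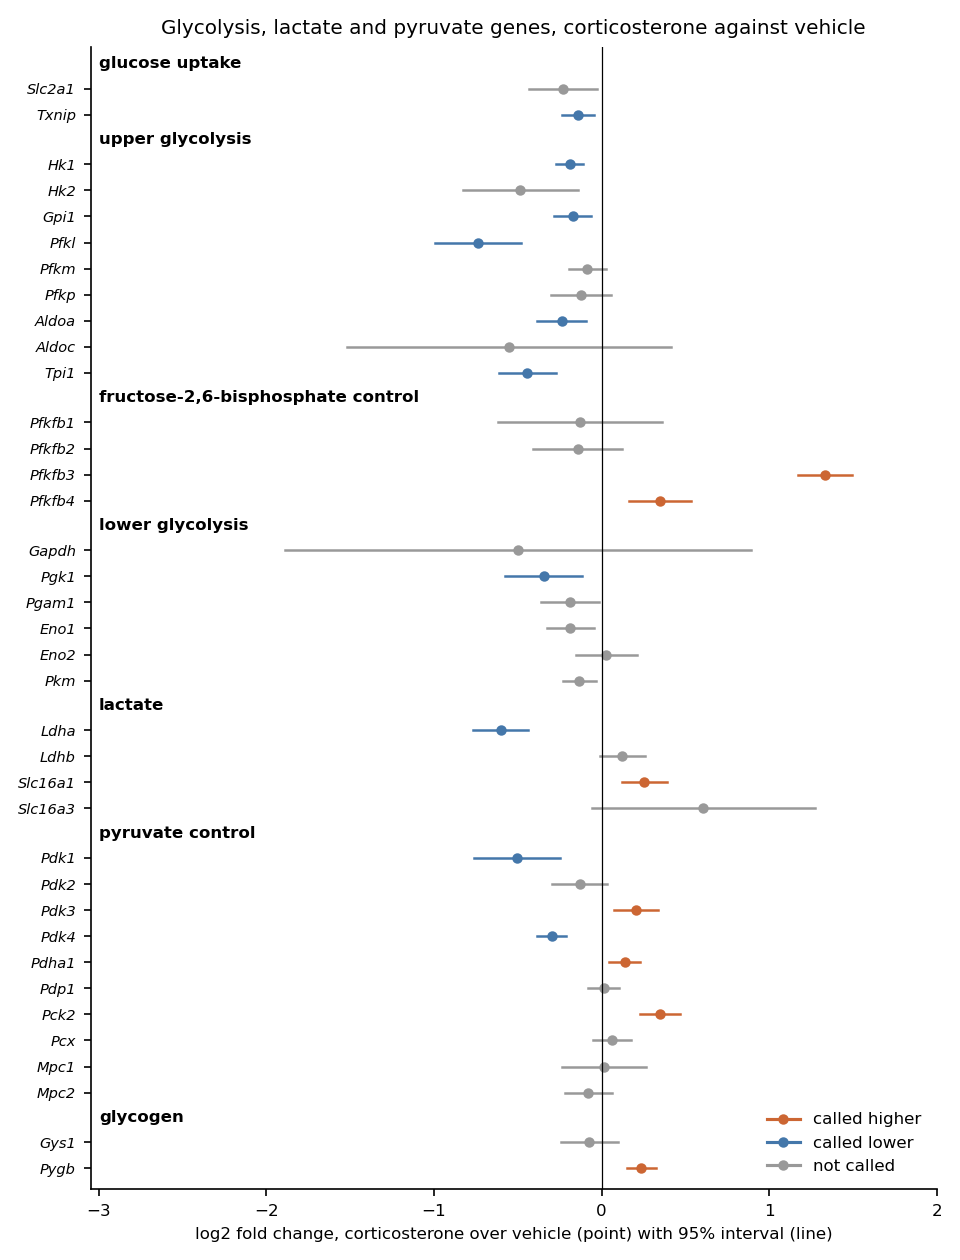
Log2 fold change of corticosterone over vehicle (x axis) for the 37 genes with a mean normalized read count of at least 10, grouped by role, with points for the estimate and lines for its 95% interval (limma, 3 against 3 libraries). *Pfkfb3* stands alone at 1.33, the glycolytic enzymes lie mostly left of 0 with *Pfkl* at -0.74, and the line of *Gapdh* spans -1.89 to 0.89.

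The PFKFB enzymes set the level of the activator of phosphofructokinase. *Pfkfb3* (ENSMUSG00000026773, chromosome 2, 11471433 to 11554077 of GRCm38, minus strand) encodes the family member with the highest kinase over phosphatase activity. It had normalized read counts of 747, 584 and 666 with vehicle and 1666, 1584 and 1768 with corticosterone. Every corticosterone library lay above every vehicle library, by more than 2-fold even for the closest pair. The log2 fold change was 1.33 (SE 0.0759, 2.52-fold, adjusted p = 2.0e-09, limma). It ranged from 1.24 to 1.42 when each library was left out in turn, and *Pfkfb3* was the only member called in every fit that was run. *Pfkfb4*, a paralog that is also a HIF-1 target, had 219.7, 228 and 214 with vehicle and 274, 285 and 284 with corticosterone. Its groups did not overlap either, and it rose by a smaller step of 0.35 (SE 0.0860, adjusted p = 0.00888), which missed the threshold at upper-quartile scaling (adjusted p = 0.0564) and with DESeq2 and a replicate block (adjusted p = 0.144). *Pfkfb1*, at 39.8 to 67.3, and *Pfkfb2*, at 151 to 217, had overlapping groups and were not called.

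Of the 9 enzymes from hexokinase to triosephosphate isomerase, 5 were called lower, 0 higher and 4 not called. All 9 log2 fold changes were below 0. *Pfkl* (ENSMUSG00000020277, chromosome 10, 77986947 to 78010083), the liver-type subunit of phosphofructokinase, had 3456, 2151 and 2819.6 with vehicle and 1567, 1521 and 1905 with corticosterone. The groups did not overlap, although the vehicle libraries differed among themselves by 1.61-fold. It fell by 0.74 on the log2 scale (SE 0.121, adjusted p = 0.000302). *Tpi1*, triosephosphate isomerase, had 12404, 9257 and 11013 with vehicle and 7855, 7347 and 8739 with corticosterone. Here too the highest corticosterone library stayed below the lowest vehicle library, and the fall was 0.44 (SE 0.0805, adjusted p = 0.000801). *Hk1*, the hexokinase that traps glucose in most cells, was tighter, with 6579.5, 6584 and 6554 against 5582, 5822 and 5886. Its fall of 0.19 (SE 0.0385, adjusted p = 0.00203) was small and clear of the spread.

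The other 2 enzymes of this stretch that were called had overlapping groups. *Gpi1*, which interconverts glucose-6-phosphate and fructose-6-phosphate, had 4837, 4249 and 4549 with vehicle and 3881, 3937 and 4277 with corticosterone. *Aldoa*, the main aldolase, had 12244, 9543 and 11002 against 9151, 8666 and 9871. In both, the highest corticosterone library, replicate 3, exceeded the lowest vehicle library, replicate 2. Their log2 fold changes were -0.17 (adjusted p = 0.0307) and -0.24 (adjusted p = 0.0247). Among genes with a mean of at least 10, both calls were lost without vehicle replicate 1 or 3 and without corticosterone replicate 1 or 2, with adjusted p up to 0.0934 for *Gpi1* and 0.0895 for *Aldoa*. DESeq2 on the recovered reads gave an adjusted p of 0.122 for *Aldoa*. *Hk2*, the hexokinase most often raised with glycolytic demand, had 347, 195 and 267 against 171, 219.8 and 175. It narrowly missed the threshold (log2 fold change -0.48, SE 0.161, adjusted p = 0.0511) and passed it with edgeR (adjusted p = 0.0330), with DESeq2 (adjusted p = 0.0262) and among genes with a mean of at least 10 (adjusted p = 0.0362). *Pfkm* and *Pfkp*, the muscle and platelet subunits of phosphofructokinase, ranged from 1121 to 1243 and from 389 to 491 and were not called, although the corticosterone libraries of *Pfkm* all lay just below its vehicle libraries. *Aldoc*, at 8.57 to 22.7, was also not called.

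From glyceraldehyde-3-phosphate to pyruvate, 1 of 6 genes was called lower and 0 higher. *Pgk1*, phosphoglycerate kinase, had 9055, 6002 and 8171 with vehicle and 6202, 5318 and 6556 with corticosterone. The groups overlapped through vehicle replicate 2, and the log2 fold change was -0.35 (SE 0.108, adjusted p = 0.0363). Among genes with a mean of at least 10 the call was lost without vehicle replicate 1 or 3 or corticosterone replicate 2 (adjusted p up to 0.135), and DESeq2 gave an adjusted p of 0.176. Of the 31-base stretches (31-mers) in all annotated transcripts of *Pgk1*, 54.7% also occur in transcripts of 6 other genes, all annotated pseudogenes. Its count therefore depends on how such reads were assigned. *Pkm*, pyruvate kinase, had 19271, 17544 and 18370.1 against 16529, 16101 and 17736. *Eno1*, the main enolase, had 15322, 12277 and 13611 against 11823, 11251 and 13039. Both overlapped slightly and stayed just outside the threshold, at -0.13 (adjusted p = 0.0582) and -0.19 (adjusted p = 0.0687). With edgeR they passed, at adjusted p = 0.0350 and 0.0393. *Pgam1*, phosphoglycerate mutase, had a log2 fold change of -0.19 (adjusted p = 0.146) and *Eno2*, the neuronal enolase, of 0.03 (adjusted p = 0.899). Other genes also hold 34.7%, 28.5% and 37.1% of the 31-mers of *Pkm*, *Eno1* and *Pgam1*, so these counts are uncertain in the same way.

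**Figure D2:**
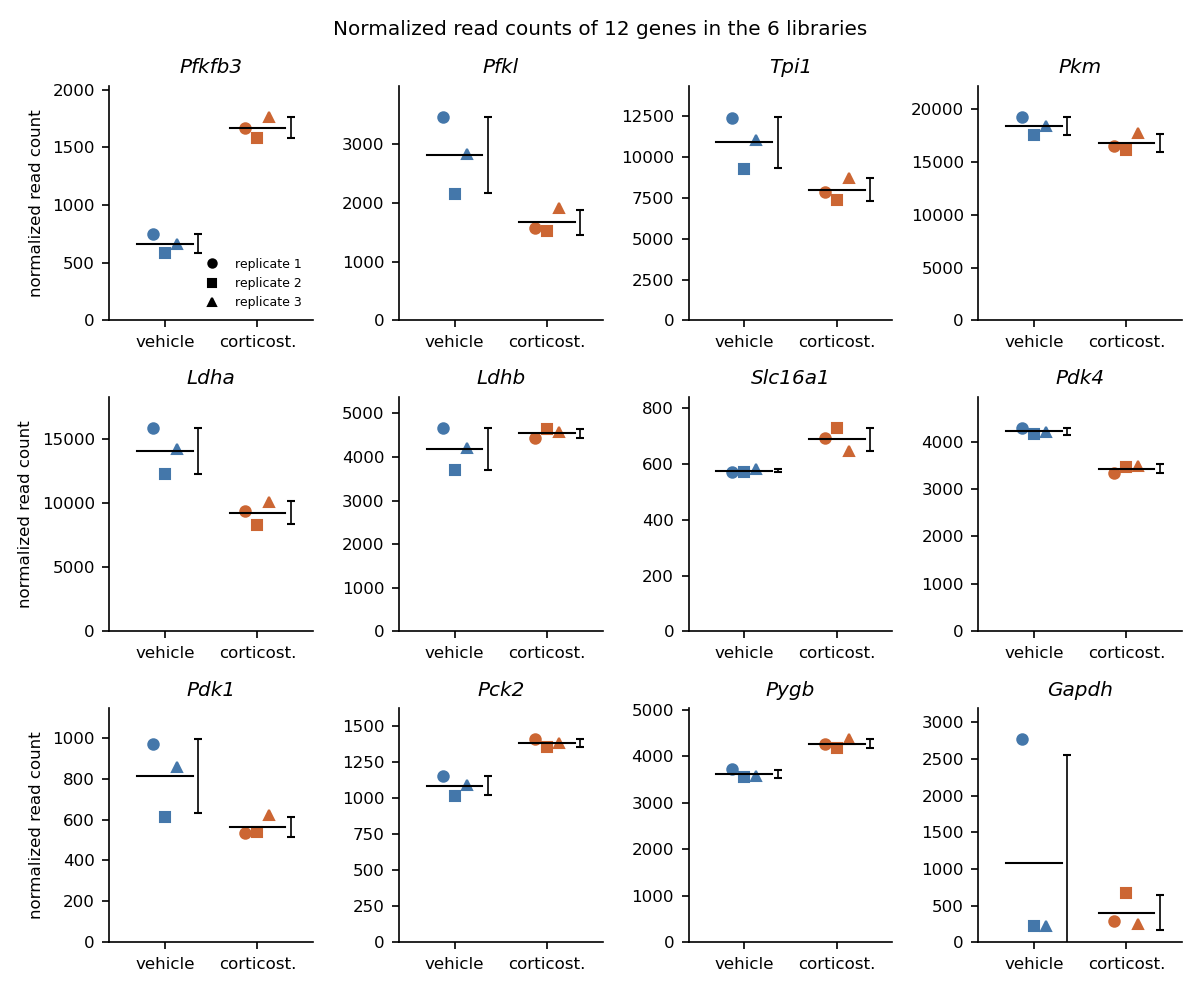
Normalized read count (y axis, from 0) of 12 genes in each library, with symbols for replicates 1 to 3, a line for the mean and a bar for 1 SD, for vehicle (blue) and corticosterone (orange). The groups stand apart for *Pfkfb3*, *Pfkl*, *Tpi1*, *Ldha*, *Slc16a1*, *Pdk4*, *Pck2* and *Pygb*, and the vehicle bar of *Gapdh* is set by replicate 1 at 2778 and is cut off at 0.

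At the fork to lactate, 1 of the 2 lactate dehydrogenase subunits was called. *Ldha* (ENSMUSG00000063229, chromosome 7, 46841475 to 46855627, plus strand), whose subunit favours the reduction of pyruvate to lactate, had 15811, 12230.3 and 14209 with vehicle and 9409.9, 8306 and 10059 with corticosterone. No corticosterone library reached the lowest vehicle library. It fell by 34.1%, a log2 fold change of -0.60 (SE 0.0767, adjusted p = 2.3e-05). *Ldhb*, whose subunit favours the oxidation of lactate, had 4659, 3695 and 4216 against 4430.3, 4630.0 and 4581. Its groups overlapped and it was not called (0.12, 95% interval -0.01 to 0.26, adjusted p = 0.232), although it was called higher without vehicle replicate 1 among genes with a mean of at least 10 (adjusted p = 0.00926).

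Of the lactate transporters, *Slc16a1*, which encodes MCT1, had 572, 572 and 582 with vehicle and 691, 728 and 645 with corticosterone. The vehicle libraries were nearly equal and all lay below the corticosterone libraries. The rise was 0.26 (SE 0.0642, adjusted p = 0.010), and it missed the threshold at upper-quartile scaling (adjusted p = 0.109). *Slc16a3*, which encodes the export carrier MCT4 and is a HIF-1 target, held few reads, 18.7 to 40.3 against 30.7 to 46.0, and was not called (0.61, 95% interval -0.06 to 1.27). It was called higher without vehicle replicate 3 among genes with a mean of at least 10 (adjusted p = 0.0414).

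Promoters are shown for 4 called members, of which *Pgk1* lost its call with DESeq2 and when some libraries were left out. They are the promoters of the induced *Pfkfb3*, the lowered *Ldha* and *Pgk1*, and *Pfkl*, which fell by the largest step among the called members. Each is the 250 bases before the most upstream RefSeq start of the gene (GRCm38.p6), in the direction of transcription, with capitals marking the hypoxia-response core ACGTG, searched on both strands as ACGTG and CACGT. A glucocorticoid receptor half-site, AGAACA or TGTTCT, would also be in capitals, and none of these 4 windows holds it. The palindrome CACGTG holds both forms of the core, overlapping, and counts as 2 matches.
*Pfkfb3*, chr2:11553930-11554179, minus strand: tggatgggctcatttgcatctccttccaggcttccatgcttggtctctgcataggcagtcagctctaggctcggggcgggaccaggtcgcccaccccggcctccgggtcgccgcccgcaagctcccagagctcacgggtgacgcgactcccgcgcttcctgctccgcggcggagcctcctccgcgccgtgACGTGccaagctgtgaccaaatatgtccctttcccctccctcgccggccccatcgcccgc
*Ldha*, chr7:46845554-46845803, plus strand: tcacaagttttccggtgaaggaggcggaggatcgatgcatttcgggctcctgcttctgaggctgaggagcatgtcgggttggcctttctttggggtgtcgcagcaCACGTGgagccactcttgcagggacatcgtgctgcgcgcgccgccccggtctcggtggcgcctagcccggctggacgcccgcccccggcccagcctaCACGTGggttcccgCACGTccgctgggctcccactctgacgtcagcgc
*Pgk1*, chrX:106186850-106187099, plus strand: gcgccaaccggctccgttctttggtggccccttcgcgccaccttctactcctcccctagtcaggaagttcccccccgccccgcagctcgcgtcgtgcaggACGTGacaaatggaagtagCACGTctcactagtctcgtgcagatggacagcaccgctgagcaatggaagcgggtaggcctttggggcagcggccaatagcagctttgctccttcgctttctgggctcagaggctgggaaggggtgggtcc
*Pfkl*, chr10:78009808-78010057, minus strand: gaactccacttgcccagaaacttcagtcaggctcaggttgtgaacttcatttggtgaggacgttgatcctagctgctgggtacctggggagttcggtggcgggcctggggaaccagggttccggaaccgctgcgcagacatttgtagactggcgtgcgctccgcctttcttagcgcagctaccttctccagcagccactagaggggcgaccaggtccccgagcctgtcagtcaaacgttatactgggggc

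The *Ldha* window held 5 matches to the core, that of *Pgk1* held 2, that of *Pfkfb3* 1 and that of *Pfkl* 0, so matches stood in windows of genes that rose and of genes that fell. RefSeq gave windows for 37 of the 39 members, 58 in all. The core occurred in 21 of the 58 (36.2%), belonging to 17 genes, and in 16.6% of all 32851 windows of this length. The glucocorticoid receptor half-site occurred in 10 of the 58 (17.2%) and in 16.1% of all windows. Only the form ACGTG was searched as the core, so these counts, with the 0 for *Pfkl*, leave out any other form of it. A match is a run of letters and no evidence of binding.

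Among the 10 genes that control pyruvate, 3 were called higher and 2 lower, and the PDK kinases, which switch pyruvate dehydrogenase off, did not move together. *Pdk4* had 4294, 4157 and 4192 with vehicle and 3334, 3467 and 3494 with corticosterone. Replicates were close within both groups, and it fell by 0.30 (SE 0.0408, adjusted p = 5.3e-05). *Pdk1*, a HIF-1 target, had 968, 613 and 859 against 534, 537 and 622. Vehicle replicate 2 lay just below corticosterone replicate 3, so the groups overlapped, and the fall was 0.50 (SE 0.121, adjusted p = 0.00723). *Pdk3* had 1002, 871 and 878 against 1063, 1065 and 1043, without overlap, and rose by 0.21 (SE 0.0612, adjusted p = 0.0272). That call was lost without vehicle replicate 3 or corticosterone replicate 1 or 2 among genes with a mean of at least 10 (adjusted p up to 0.0789), and at equal library totals (adjusted p = 0.0816). *Pdk2*, at 429 to 524, was not called.

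*Pdha1*, which encodes the subunit of pyruvate dehydrogenase that those kinases phosphorylate, had 2948, 2939 and 2797 with vehicle and 3223, 3067 and 3261 with corticosterone. It rose by 0.14 (SE 0.0442, adjusted p = 0.0434), a step that was lost with equal library totals (adjusted p = 0.157), with upper-quartile scaling (adjusted p = 0.479) and without vehicle replicate 3 or corticosterone replicate 1 or 3 among genes with a mean of at least 10 (adjusted p up to 0.113). *Pck2*, the mitochondrial phosphoenolpyruvate carboxykinase, had 1149.8, 1016 and 1088 against 1410.0, 1349.7 and 1383. The groups were well apart and the rise was 0.35 (SE 0.0558, adjusted p = 0.000227). The remaining 4 genes of this group were not called. These are *Pdp1*, a phosphatase that reactivates pyruvate dehydrogenase (2041 to 2139), *Pcx*, pyruvate carboxylase (1043 to 1154), and *Mpc1* and *Mpc2*, the subunits of the mitochondrial pyruvate carrier (293 to 412 and 693 to 811). Their 95% intervals lay within -0.23 to 0.26 on the log2 scale, and the signs for *Pdp1*, *Pcx* and *Mpc1* flipped under some scalings.

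Among the 3 glucose uptake genes, 1 was called lower and 0 higher, and uptake itself was not measured. *Slc2a1*, which encodes the transporter GLUT1, had 976, 731 and 871 with vehicle and 701, 667 and 824 with corticosterone. The groups overlapped and it was not called (-0.23, SE 0.0945, adjusted p = 0.123). *Txnip*, an arrestin-like protein that restrains glucose uptake and is described as glucose-induced, had 4369, 4528 and 4539 against 3953, 3914 and 4315. It fell by 0.14 (SE 0.0453, adjusted p = 0.0408), and the call was lost without vehicle replicate 3 or corticosterone replicate 1 or 2 among genes with a mean of at least 10 (adjusted p up to 0.108). *Slc2a3*, which encodes GLUT3, was near the floor with 0 to 13 reads per library and was not called.

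Of the 3 glycogen genes, *Pygb*, the brain-type glycogen phosphorylase, was called higher. It had 3728, 3562 and 3579 with vehicle and 4257, 4179 and 4383 with corticosterone. The groups stood apart and the rise was 0.24 (SE 0.0413, adjusted p = 0.000516). *Gys1*, glycogen synthase, had 1244, 952 and 1171 against 1039.6, 1025 and 1119 and was not called (-0.07, 95% interval -0.24 to 0.10). *Pygl*, the liver-type phosphorylase, had 0 reads in each vehicle library and 0, 2 and 4 reads with corticosterone, which is at the floor, so no fold is given.

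Levels per length of all annotated exons of a gene put the changes in proportion. With vehicle, *Tpi1*, *Pgam1*, *Aldoa*, *Pkm*, *Pgk1* and *Eno1* held 2554 to 3956 normalized reads per kb, and *Hk1* and *Gpi1* held 770.3 and 704. *Pfkl* and *Pfkm* were lower still, at 421 and 360.4 normalized reads per kb. Within families, these per-kb levels gave the share of each isozyme. *Pfkfb3* made up 50.3% ± 2.33 (SD, n = 3) of the PFKFB reads per kb with vehicle and 69.9% ± 0.493 with corticosterone. *Ldha* made up 61.4% ± 0.304 of the lactate dehydrogenase reads per kb with vehicle and 49.1% ± 2.70 with corticosterone. Other genes also hold 19.6% of the 31-mers of *Ldha* and 33.0% of those of *Ldhb*, so these levels depend on how shared reads were assigned. *Pfkl* made up 51.2% ± 5.42 of phosphofructokinase with vehicle and 40.1% ± 3.07 with corticosterone, while *Pfkm* went from 44.7% ± 5.30 to 54.9% ± 3.09. *Pdk3* went from 19.7% ± 0.989 to 25.7% ± 0.650 of the PDK kinases and *Pdk4* from 66.1% ± 0.936 to 61.0% ± 0.512. In each of these the 3 corticosterone libraries lay wholly on 1 side of the vehicle libraries. The two-sided exact permutation test gave its smallest possible p of 0.1 for each, or 0.19 after adjustment over 19 shares in 11 families, so none could pass 0.05. Replacing the exon length by that of the longest transcript, or using no length, changed the direction of none of the 27 shares. The size of a share and the order of isozymes do depend on the length used. Counted without length, *Ldha* exceeded *Ldhb* and *Pfkl* exceeded *Pfkm* in all 6 libraries.

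**Figure D3:**
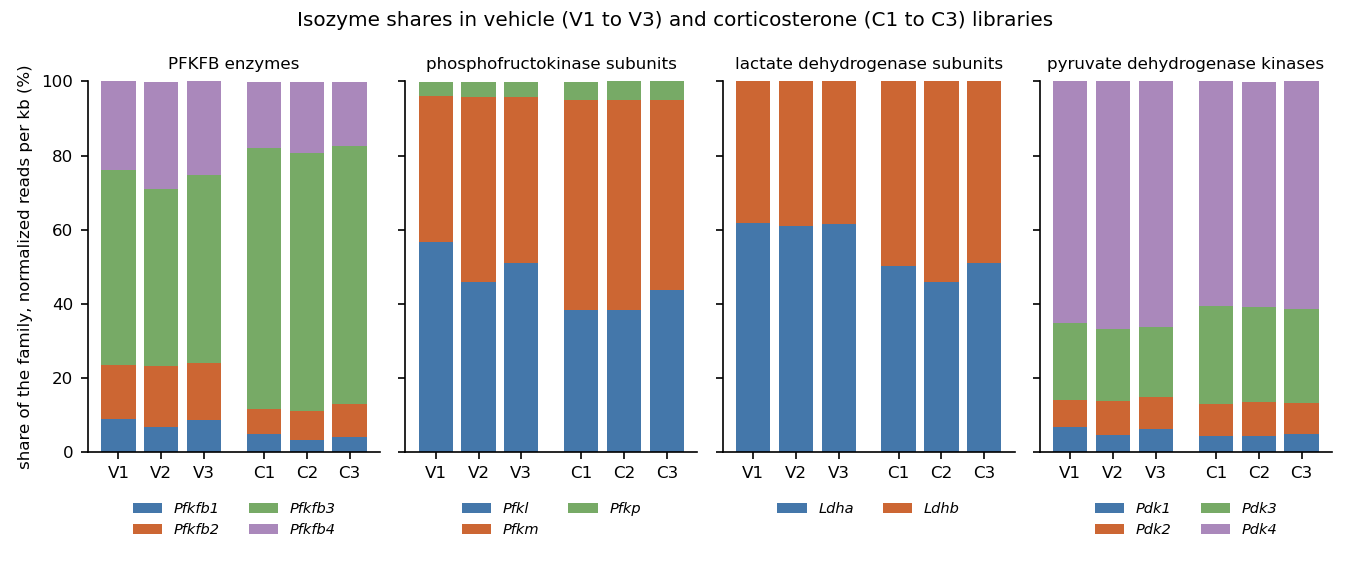
Share of each isozyme in its family (y axis, percent of normalized reads per kb of exon) in the vehicle (V1 to V3) and corticosterone (C1 to C3) libraries, as stacked bars. *Pfkfb3* widens from 50.3% to 69.9% on average, and *Ldha* narrows from 61.4% to 49.1%.

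Spread between replicates was wider for the members than for most genes with vehicle. Of the 34 members with a mean of at least 100, 5 differed more than 1.5-fold among the vehicle libraries, against 1.35% of all genes with such a mean. These were *Hk2*, *Pfkl*, *Gapdh*, *Pgk1* and *Pdk1*. With corticosterone 1 of the 34, *Gapdh*, did so, against 1.00% of all such genes, and the median ratio of the highest to the lowest library was 1.10 for the members and 1.09 for all genes. Vehicle replicate 2 was the lowest vehicle library for 12 of 14 glycolytic enzymes with a mean of at least 100, and for 38.7% of all such genes, and the median distance of these enzymes to the other 2 vehicle libraries was -0.26 on the log2 scale. Vehicle replicate 1 was the highest for 11 of the 14, at a median of 0.25, against 35.8% of all genes. With corticosterone, replicate 3 was the highest for 11 of 14, at 0.12, against 40.1% of all genes. These are descriptions of the libraries and were not tested.

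Several calls changed when 1 library was left out. Without vehicle replicate 2, and among genes with a mean of at least 10, 16 members were called lower, with *Slc2a1*, *Hk2*, *Pgam1*, *Eno1*, *Pkm* and *Gys1* added (adjusted p from 5.6e-05 to 0.0230), and 7 higher. Without vehicle replicate 3, 6 were called lower and 6 higher. Of all 13880 genes with that mean, 4173 were called in either direction without vehicle replicate 2 and 3561 without vehicle replicate 3. With all libraries 4315 were called. Leaving out any library in turn at this minimum kept 11 of the 17 calls in all 6 fits. Of these, *Hk1*, *Pfkl*, *Tpi1*, *Ldha*, *Pdk1*, *Pdk4*, *Pfkfb3*, *Pck2* and *Pygb* were also called in every fit of all 6 libraries except limma without a variance trend, in which *Pfkfb3* and *Pfkfb4* were the called members. When the table was not restricted to such a mean, leaving out each library in turn kept 6 of the 17 calls in all 6 fits (*Hk1*, *Pfkfb3*, *Pfkfb4*, *Pdk4*, *Pck2* and *Pygb*), and the prior degrees of freedom by which limma shares the spread between genes were then 1.385 to 2.29, against 11.58 with all libraries. The restriction was added after the data had been seen.

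*Gapdh* stood apart from the other members. Glyceraldehyde-3-phosphate dehydrogenase is an abundant enzyme and a common reference gene. Its row had 2778, 223 and 227 with vehicle and 289, 675 and 256 with corticosterone, so vehicle replicate 1 was more than 12-fold above the other vehicle libraries and corticosterone replicate 2 more than 2-fold above its own. It was not called (log2 fold change -0.50, 95% interval -1.89 to 0.89, adjusted p = 0.696), and DESeq2 gave it no adjusted p. Without vehicle replicate 1 the log2 fold change turned to 0.71 (adjusted p = 0.430), so no direction can be given. The level of 260.3 normalized reads per kb with vehicle ranked 11 of 15 glycolytic enzymes, and that mean was set largely by vehicle replicate 1. With corticosterone *Eno2*, ranked 12 with vehicle, held 104.6 normalized reads per kb and *Gapdh* 98.4. Of its 31-mers, 28.1% also occur in transcripts of 330 other genes, 318 of them annotated pseudogenes, and 76 rows share at least 5% of them. These 31-mers were taken from all annotated transcripts of *Gapdh*. The 28.1% is thus a share of annotated sequence and not of reads, and the share of its reads that is ambiguous is not known. The sum of these 76 rows was steady, at 904.6 to 1057 over the 6 libraries, so the excess in vehicle replicate 1 was not mirrored there. The largest of these rows, *Gm7336*, held 415 to 473 and by itself shares 26.5% of the 31-mers of *Gapdh*.

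**Figure D4:**
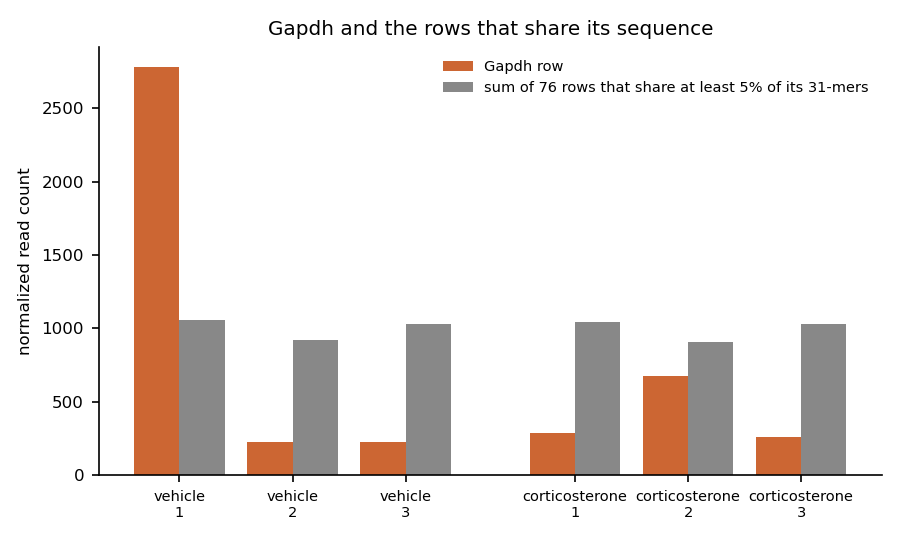
Normalized read count (y axis) of the *Gapdh* row (orange) and of the sum of 76 rows that share at least 5% of its 31-mers (grey) in each library. The grey bars stay between 904.6 and 1057, whereas the orange bar reaches 2778 in vehicle replicate 1 and lies between 223 and 675 in the other libraries.

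Other genes of the same pathways, taken from a list of 53 of which 46 had a row, included 8 called higher and 4 called lower, with a median log2 fold change of -0.00. These calls were 26.1% of the 46, beside 16.7% of all genes and 32.6% of those with a mean of at least 100. *Emb*, which encodes embigin, a partner of monocarboxylate transporters at the membrane, had 65.7, 78.7 and 92.1 with vehicle and 302, 352 and 322 with corticosterone. The groups stood far apart and the rise was 2.06 (SE 0.13, adjusted p = 7.6e-09). The more abundant partner *Bsg*, basigin, chosen after its values were seen, stayed at 15699 to 18551 (-0.02, 95% interval -0.14 to 0.10). *Ldhd*, the mitochondrial D-lactate dehydrogenase, had 48.7, 54.0 and 42.4 against 101, 125 and 122, a rise of 1.26 (SE 0.171, adjusted p = 4.6e-05). *Pdhb* and *Dlat*, subunits of the pyruvate dehydrogenase complex, rose by 0.51 and 0.27, and *Mlxip*, *Adpgk* and *Pgm2*, named after their values were seen, by 0.18, 0.20 and 0.22. Together with *Pdha1*, 3 subunits of that complex were thus called higher, while *Pdhx* and *Dld*, named after their values were seen, were not called (-0.01 and -0.05).

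Among the genes called lower on that list was *Tigar*, a fructose-2,6-bisphosphatase that opposes the PFKFB kinases, with 264, 215 and 231 against 141, 137 and 133. It fell without overlap by 0.78 (SE 0.109, adjusted p = 5.9e-05). *Arrdc4*, a relative of *Txnip*, fell by 0.39 (adjusted p = 0.000432) and *Bpgm*, which makes 2,3-bisphosphoglycerate, by 0.43 (adjusted p = 0.000994). The remaining 1, *Slc2a6*, a lysosomal hexose transporter named after its values were seen, fell by 0.73 (adjusted p = 0.00688).

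The pentose phosphate pathway leaves glycolysis at glucose-6-phosphate and makes NADPH and ribose phosphate. Of its 8 genes 6 were called higher and 0 lower, with a median log2 fold change of 0.28. That is 75% of the list, beside 32.6% of all genes with a mean of at least 100 called in either direction. The count was 4 without a variance trend and with upper-quartile scaling, and 5 at equal library totals. *H6pd*, the hexose-6-phosphate dehydrogenase that supplies NADPH to the glucocorticoid-activating enzyme in the endoplasmic reticulum, had 803, 726 and 815 with vehicle and 1343, 1405 and 1438 with corticosterone. It rose by 0.84 (SE 0.0588, adjusted p = 2.5e-08). *Pgd*, phosphogluconate dehydrogenase, had 1793, 1846 and 1793 against 2974, 2868 and 2844, a rise of 0.68 (SE 0.0439, adjusted p = 9.7e-09). *Rpe*, ribulose-phosphate epimerase, had 667, 644 and 669 against 1119, 1116 and 1066, a rise of 0.74 (SE 0.0554, adjusted p = 5.6e-08). In all 3 the groups were well separated. *Taldo1*, *Tkt* and *G6pdx*, named after their values were seen, rose by 0.37, 0.19 and 0.18, and the call of *G6pdx* was lost without corticosterone replicate 3 among genes with a mean of at least 10 (adjusted p = 0.0504).

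Of 14 genes of the TCA cycle, which oxidises what pyruvate dehydrogenase delivers, 4 were called higher and 0 lower. These were 28.6% of the list, beside 32.6% of all genes with a mean of at least 100 called in either direction. *Idh3a*, the catalytic subunit of isocitrate dehydrogenase 3, had 1683, 1459 and 1589.8 with vehicle and 2426, 2334 and 2449 with corticosterone, a rise of 0.61 (SE 0.0541, adjusted p = 4.0e-07). *Suclg1* and *Idh3b* rose by 0.20 and 0.17, and *Mdh2*, named after its values were seen, by 0.12. Among genes with a mean of at least 10, the call of *Idh3b* was lost without vehicle replicate 3 or corticosterone replicate 3 (adjusted p up to 0.0555) and that of *Mdh2* without corticosterone replicate 1 or 3 (up to 0.0794), and the count for the cycle dropped to 1 or 2 under equal library totals and upper-quartile scaling.

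Calls among HIF-1 targets outside the glycolytic set, with *Hif1a* itself, went both ways. Of 15 genes 4 were called higher and 4 lower. That is 53.3%, beside 16.7% of all genes and 32.6% of those with a mean of at least 100 in either direction. The median log2 fold change was -0.19, with 10 genes below 0 and 5 above. *Ddit4*, a stress gene also known as glucocorticoid-induced, rose by 0.96 (SE 0.0496, adjusted p = 7.2e-10), with 6535, 6218 and 6210.2 against 11849.9, 11620.2 and 13380.2. *Vegfa* and *Car12* both rose by 0.65 (adjusted p = 3.8e-08 and 0.00124). *Kdm3a*, a histone demethylase, *P4ha1*, a collagen prolyl hydroxylase, and *Egln1*, a HIF prolyl hydroxylase, fell by 0.40, 0.43 and 0.24. The other two called genes, *Hif1a* (0.23) and *Ndrg1* (-0.34), were named after their values were seen, and *Ndrg1* was lost at a mean of at least 10 without vehicle replicate 1 or 3 or corticosterone replicate 1 (adjusted p up to 0.114). This list shared the order of the libraries, with vehicle replicate 1 highest for 11 and vehicle replicate 2 lowest for 9 of the 12 genes with a mean of at least 100.

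**Figure D5:**
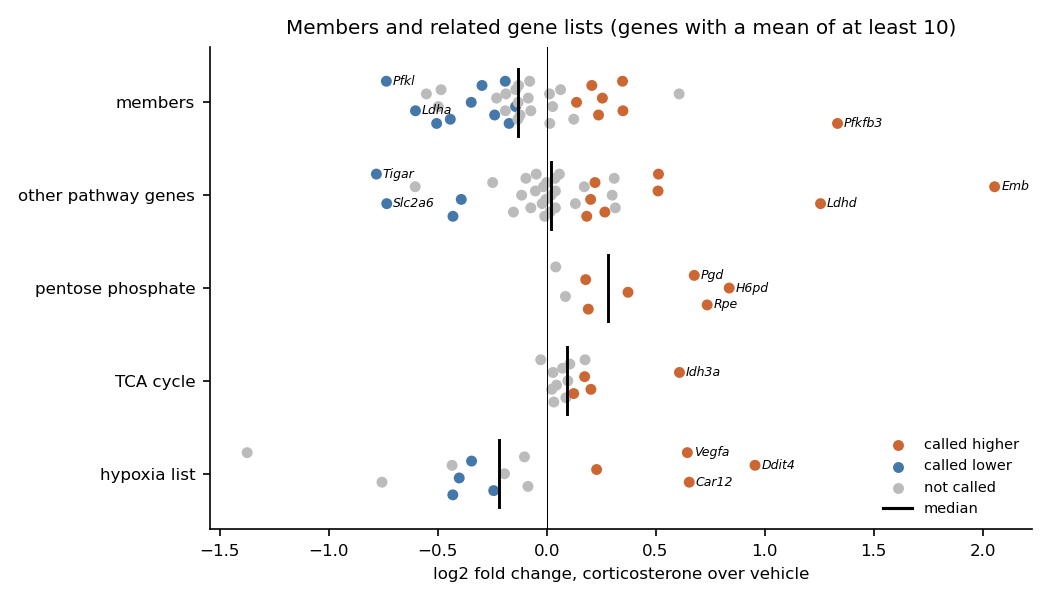
Log2 fold change of corticosterone over vehicle (x axis) for the members and 4 related lists (y axis), with 1 point per gene of a mean of at least 10, coloured by its call, and a black line at the median of each list. All 8 pentose phosphate points lie right of 0 and 24 of the 37 members lie left of it, with *Pfkfb3*, *Ldhd* and *Emb* right of 1.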

How the data were processed

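The labels describe RNA isolated on columns, libraries made with the NEBNext Ultra RNA kit for Illumina, and build mm10. The authors tested these data with DESeq2. The aligner, counting program, annotation and use of strand are not given in the sources used here. The authors deposited 1 table of signal values for each gene, named FPKM, although within each library 100% of the values are whole multiples of 1 step (tolerance 0.01), as read counts divided by a size factor would be. Multiplying back recovered whole reads. Since the design had assumed FPKM, the limma test on a log scale was kept, and count models were run as alternatives.

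Symbols, coordinates and lengths came from GENCODE M21 (GRCm38), which matched 24008 of 24016 identifiers. limma 3.58.1 (R 4.3.3, lmFit and eBayes with a variance trend) was fitted to log2(value + 0.1) of all 24016 genes without a filter. edgeR 4.0.16 and DESeq2 1.42.0 used the recovered reads. The members, the related lists and the alternatives were chosen with earlier results of these data known. All 39 members were reported, and from each related list the called genes past an absolute log2 fold change of 1 and up to 3 more per direction with the smallest adjusted p, except for an item that is not reported here. Promoter windows came from RefSeq. Libraries with the same replicate number were not taken as pairs, since no label pairs them and the correlations of their deviations were -0.0438, 0.0014 and 0.0234 over 13880 genes. Alternatives were other pseudocounts, minimum means, scalings, tools, a replicate block and leaving out each library.

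On simulated counts of 24016 genes for corticosterone against vehicle at a dispersion of 0.005, limma recovered 87 of 100 genes changed by a log2 fold change of 2 and 24 of 100 changed by 0.5. edgeR recovered 100 and 75, and DESeq2 95 and 64. limma made 2 false calls at a mean of at least 10 and 127 below it. Every simulated gene had this same dispersion and varied independently of the others. Of the 34 members with a mean of at least 100, 5 differed more than 1.5-fold among the vehicle libraries, and the glycolytic enzymes shared an order of libraries. The simulated counts therefore do not describe such members. The 2 members with a mean under 10, *Slc2a3* and *Pygl*, were not called. Libraries of the same treatment differed by more than sampling noise (chi-square per degree of freedom of 3.38 or more), so none looked like another library sequenced again. This comparison cannot tell separate cultures from separate libraries made from 1 culture. Figures were drawn with matplotlib 3.10.9.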

Additional observations from a re-analysis of the deposited data

How the results depend on the processing

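The median log2 fold change of the members and their single fold past 1 held under most settings, whereas the counts of calls moved. Members called higher (7) were 2 without a variance trend, 3 with upper-quartile scaling and 3 with DESeq2 and a replicate block, and members called lower (10) were 6 with a pseudocount of 0.01 and 0 without a variance trend, a fit with prior degrees of freedom of 0.7479. Without a variance trend 1633 of all 24016 genes were called, and 11 members had an unadjusted p under 0.05. Other pathway genes called higher (8) were 4 without a variance trend and 5 with upper-quartile scaling, with equal totals without the 10 most abundant genes, and with DESeq2 and a block. TCA cycle genes called higher (4) were 1 without a variance trend, with upper-quartile scaling and with equal totals without the 10 most abundant genes, and 2 with equal totals. Hypoxia genes called higher (4) were 2, and those called lower (4) were 0, without a variance trend. Pentose phosphate genes called higher (6) were 4 without a variance trend and with upper-quartile scaling. They were 5 with quantile normalization, with DESeq2 and a block, and with equal totals, with or without the 10 most abundant genes. Except where given, the cause was not tested.

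Leaving out each library in turn gave 4 to 5 members called higher, 2 to 7 lower and 1 to 2 past a log2 fold change of 1, and, restricted to a mean of 10 or more (a choice made after seeing the data), 5 to 8 higher and 6 to 16 lower. Of all 24016 genes, 2362 to 3034 were called in either direction in the unrestricted fits. With the restriction it was 3520 to 4173 of 13880. The second gene past 1, without corticosterone replicate 1, was *Pygl*, which is at the floor. Over both kinds of fit, other pathway genes called higher were 5 to 9, pentose phosphate genes called higher 4 to 6 and TCA cycle genes called higher 1 to 6. Hypoxia genes called higher were 2 to 5 and those called lower 0 to 8.

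With the replicate number as a block, limma called 6 members higher and 13 lower, edgeR 7 and 15, and DESeq2 3 and 10. For the edgeR and DESeq2 block fits no share over all genes was computed. *Pdha1* lost its call under the limma block (adjusted p = 0.0576). Under the DESeq2 block *Aldoa* (adjusted p = 0.0738), *Pfkfb4* (0.144), *Slc16a1* (0.0851), *Pdk3* (0.103) and *Pdha1* (0.0966) lost theirs. The numbers do not pair the cultures by any label.

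The log2 fold change turned sign for 7 members that were not called. With equal totals, *Eno2* was -0.0142, *Pdp1* -0.0287 and *Mpc1* -0.0273. With upper-quartile scaling, *Eno2* was -0.0410, *Pdp1* -0.0555, *Mpc1* -0.0541 and *Pcx* -0.0044. With equal totals without the 10 most abundant genes, *Eno2* was -0.0271, *Pdp1* -0.0416 and *Mpc1* -0.0402, and with quantile normalization *Pdp1* was -0.0125. Leaving out single libraries gave a range of -0.0291 to 0.1326 for *Eno2* (-0.0210 without vehicle replicate 3 and -0.0086 without corticosterone replicate 3), -0.0864 to 0.1603 for *Mpc1* (-0.0307 without vehicle replicate 1 and -0.0719 without corticosterone replicate 2), -0.0039 to 0.0231 for *Pdp1*, -0.3053 to 0.0561 for *Pfkfb1* (0.0008 without vehicle replicate 1), -0.1865 to 0.0061 for *Gys1* and -1.1073 to 0.7117 for *Gapdh*. Of 769 values of single members under the alternatives set at the start, 612 kept direction and call, 95 lost a call, 40 gained one and 22 turned sign. Upper-quartile scaling moved the median of all genes to -0.08.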
